A study of Homo sapiens with 15 samples.

Results

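Chromosome 19 carries many of the tandem arrays of KRAB zinc finger genes in the human genome, and 5 stretches of it that hold such arrays were examined here for peaks of the oxidised histone mark H3K4ox, the histone variant H2A.Z and the ATPase RUVBL2. A peak was assigned to a stretch by its centre. In hg19 the stretches lay at 20.0 to 24.5 Mb (cluster A), 36.5 to 38.5 Mb (B), 44.3 to 45.0 Mb (C), 52.3 to 54.0 Mb (D) and 57.0 to 59.1 Mb (E), together 11 Mb. They held 5150 of the 647617 peaks in the 4 lists: 2038 of 252459 for H3K4ox replicate 1, 1954 of 246967 for H3K4ox replicate 2, 252 of 38584 for H2A.Z and 906 of 109607 for RUVBL2. Clusters are compared with the rest of chromosome 19 beyond 20 Mb, which is called the rest here. It measured 24.98 Mb without a peak-free stretch of 3.13 Mb and held 14159 peaks.

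The lists came from chromatin immunoprecipitation with sequencing (ChIP-seq) in MDA-MB-231, a long-established cell line from a triple-negative breast cancer, with no knockdown named for these samples. H3K4ox was measured in 2 libraries with a handmade antibody, and H2A.Z and RUVBL2 in 1 library each with commercial antibodies. The input, 8 RNA-seq and 2 ATAC-seq samples of control, LOXL2-knockdown or RUVBL2-knockdown cells were not analysed here. The study title names LOXL2, the lysyl oxidase that oxidises lysine 4 of histone H3, and chromatin compaction.

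KRAB zinc finger proteins bind DNA through arrays of zinc fingers and recruit the corepressor TRIM28 through their KRAB domain. TRIM28 brings in histone H3 lysine 9 methyltransferases, and many of the targets are transposable elements. The genes arose by tandem duplication, so that neighbours resemble each other, and the exons that encode the zinc fingers are themselves known to carry H3K9me3 in many cell types. In the RefSeq annotation of GRCh38.p14, used for names and gene order only, 265 of the 1451 protein-coding genes of chromosome 19 carried a zinc finger family name (ZNF, ZFP, ZSCAN, ZIM, ZIK or ZKSCAN). These were 46.6% of the 569 such genes in the genome. Of the 265, 213 stood in 18 unbroken runs of 5 or more. The longest run, from ZNF737 to ZNF681, had 27 genes. The next had 24 (ZNF627 to ZNF791 and ZNF565 to ZNF793), 23 (ZNF772 to ZNF256) and 20 (ZNF283 to ZNF180). These runs were counted over the whole chromosome and were not matched to the stretches or to the rest. Peaks were not assigned to genes, since no hg19 annotation was used here, and sites are given by position.

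The depth of the libraries is unknown. RUVBL2 and H2A.Z were each measured once, and the labels do not say whether the H3K4ox replicates were separate cultures, so their SD may be technical. No test over samples was possible with 2 lists of one kind and 1 of each other kind, and no p-value is given. Intervals are at 95% and cover counting error only: peaks are treated as independent, which neighbouring peaks are not. The list headers contain the term multilocus without an explanation, so how reads from near-identical gene copies were counted is unknown.

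H3K4ox peaks were sparser in the zinc finger clusters than in the rest. The density was 181 ± 5.40 peaks per Mb (SD, n = 2) against 232 ± 1.61, with 185 and 178 in the clusters for replicates 1 and 2 and 233 and 231 in the rest. The ratio was 0.781 ± 0.018 (SD, n = 2). The interval was 0.754 to 0.835 in replicate 1 and 0.730 to 0.809 in replicate 2, so that the replicates overlapped each other and neither reached 1. Clusters A and C were the sparsest, at 137 ± 5.34 and 126 ± 5.05 peaks per Mb. Cluster D held 195 ± 4.16, E 217 ± 7.07 and B 252 ± 4.95. Against this rest no deficit was detectable in B, where the ratio was 1.09 (0.998 to 1.198) and 1.07 (0.979 to 1.18) in the replicates. The same held in E, where it was 0.952 (0.865 to 1.05) and 0.919 (0.832 to 1.01). Without cluster A the ratio of the other 4 was 0.914. The rest was itself uneven, from 147 ± 5.41 peaks per Mb in the stretch between the peak-free sequence and cluster B to 311 ± 1.07 between clusters C and D. Measured against the rest beyond the start of cluster B, which leaves out that sparse stretch, the ratio of the pooled clusters was 0.647 ± 0.020. Cluster E lay below 1 there in both replicates, at 0.794 (0.721 to 0.874) and 0.757 (0.685 to 0.835). Cluster B was at 0.913 (0.831 to 1.0002) and 0.886 (0.806 to 0.972). Against the whole genome outside the clusters the pooled ratio turned to 2.098, with 87.4 and 85.5 H3K4ox peaks per Mb in that reference.

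RUVBL2 showed no deficit of this kind against the rest. The clusters held 82.4 RUVBL2 peaks per Mb and the rest 76.5, a ratio of 1.077 with an interval of 0.994 to 1.17. Cluster B stood apart, with 126 RUVBL2 peaks per Mb (ratio 1.65, 1.44 to 1.88). The others held between 60 (C) and 74.9 (A), and their intervals included 1. The value for the pooled clusters depended on the choices made. Its interval lay above 1 with borders trimmed by 0.1 Mb (1.097, 1.01 to 1.19), without cluster A (1.14, 1.04 to 1.26) and with the peak-free stretch counted in the rest (1.21, 1.12 to 1.31), and against the whole genome outside the clusters the ratio was 2.17 (2.03 to 2.32). Against the rest beyond the start of cluster B the ratio was 0.883 (0.812 to 0.960). Cluster B remained above 1 there, at 1.35 (1.18 to 1.54), and was alone among the 5 in doing so. The intervals of the others lay below 1 against that reference. The ratio was 0.803 (0.711 to 0.904) in A and 0.643 (0.462 to 0.874) in C. It was 0.744 (0.612 to 0.898) in D and 0.802 (0.676 to 0.945) in E.

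H2A.Z, the variant that RUVBL2-containing complexes exchange into nucleosomes, had 22.9 peaks per Mb in the clusters and 25.6 in the rest. The ratio of 0.896 had an interval of 0.771 to 1.04, so that no difference was detectable with 252 peaks. Against the rest beyond the start of cluster B it was 0.670 (0.575 to 0.779), and against the whole genome outside the clusters 1.71 (1.51 to 1.94). Per cluster the density was 20.2 in A, 21.5 in B, 18.6 in C, 21.8 in D and 32.4 in E. Cluster E (25.1 to 41.1) lay above A (16.3 to 24.8) with no overlap of their intervals, and the other pairs overlapped. Against the rest, the interval of A (ratio 0.791, 0.628 to 0.986) lay below 1 and those of the other 4 included it. Against the rest beyond the start of cluster B, the intervals of A to D lay below 1. The ratios were 0.591 (0.468 to 0.739) in A and 0.629 (0.450 to 0.858) in B. They were 0.543 (0.287 to 0.937) in C and 0.637 (0.443 to 0.888) in D. The interval of E included 1 there (0.947, 0.725 to 1.22).

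**Figure D1:**
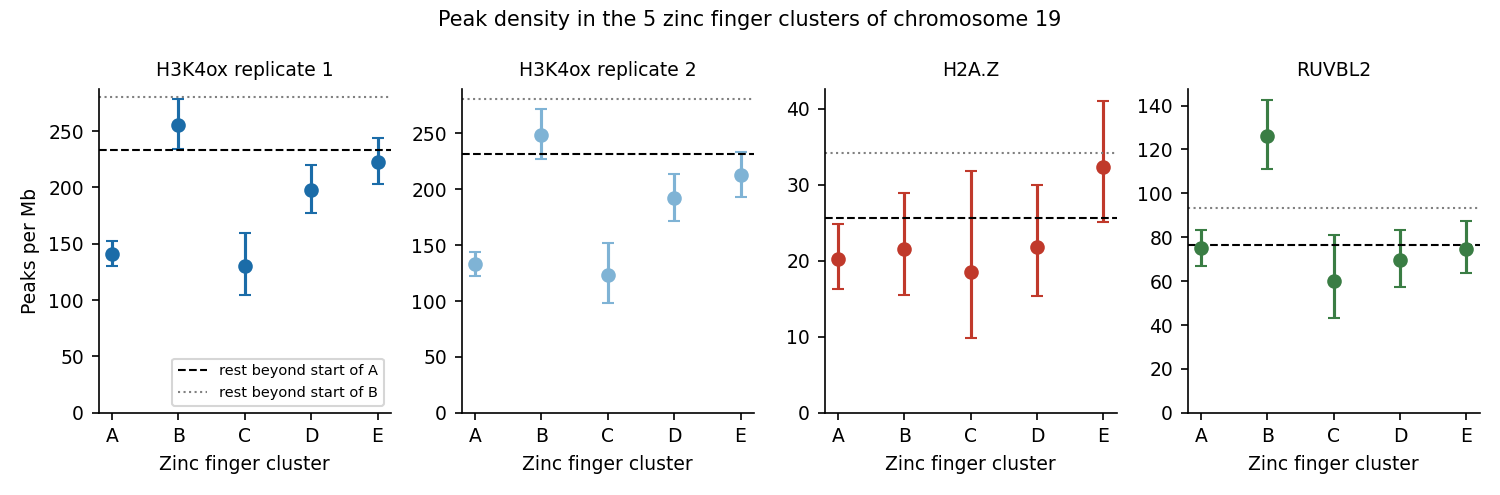
Peaks per Mb in clusters A to E for each list, with exact 95% Poisson intervals; the dashed line is the rest of chromosome 19 beyond 20 Mb and the dotted line the rest beyond the start of cluster B. H3K4ox is low in A and C (137 and 126 per Mb on average), and RUVBL2 is high in B (126 per Mb).

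Relative to H3K4ox, RUVBL2 was more frequent in the clusters than in the rest. For every 100 H3K4ox peaks there were 45.4 ± 1.35 RUVBL2 peaks (SD, n = 2, over the H3K4ox replicates) in the clusters and 32.9 ± 0.23 in the rest. The ratio was 1.36 (1.24 to 1.49) with replicate 1 and 1.40 (1.28 to 1.54) with replicate 2, and its mean was 1.36 when the rest began at cluster B. With the whole genome outside the clusters as reference it was 1.03. The values were highest in clusters A, B and C, with 54.7 ± 2.14, 50.01 ± 0.98 and 47.5 ± 1.90 RUVBL2 peaks per 100; for C, with 42 RUVBL2 peaks, the interval of the ratio to the rest included 1 in replicate 1 (0.974 to 2.04). Clusters D and E had 35.7 ± 0.76 and 34.4 ± 1.12. The 4 long pieces of the rest ranged from 31.4 ± 1.16 to 34.3 ± 0.12, below the values of A, B and C. The part of chromosome 19 before cluster A, which the rest leaves out, had 54.8 ± 0.53. That was near the value of A and above those of B and C, so high values were not confined to the clusters. These SDs come from the H3K4ox replicates and hold no counting error of RUVBL2. For D the interval of the ratio to the rest included 1 in both replicates (0.864 to 1.33 and 0.881 to 1.36). The same was true of E (0.850 to 1.24 and 0.881 to 1.29). Cluster A combined few H3K4ox peaks with a RUVBL2 density at 0.979 of that in the rest, and cluster B combined H3K4ox near the level of the rest with many RUVBL2 peaks. For H2A.Z the values were 12.6 ± 0.38 in the clusters and 11.01 ± 0.08 in the rest per 100, with intervals of the ratio that included 1 in both replicates (0.967 to 1.32 and 0.999 to 1.36). Cluster B had 8.53 ± 0.17 H2A.Z peaks per 100 H3K4ox peaks and the other 4 clusters between 11.2 and 14.9; in A and E the intervals of the ratio lay above 1 in both replicates, with lower bounds of 1.04 and 1.085 in A and 1.02 and 1.05 in E. Against the rest beyond the start of cluster B these intervals included 1 (lower bounds 0.929 and 0.983 in A, 0.911 and 0.955 in E), and those of B lay below it (0.499 to 0.952 and 0.514 to 0.981).

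Windows of 0.1 Mb showed where the peaks lay within the clusters. Over 110 windows the count ranged from 2 to 36 for H3K4ox replicate 1 and from 4 to 41 for replicate 2, both with a median of 18. In the 249 windows of the rest the medians were 25 and 26. RUVBL2 counts had a median of 8 and a range of 0 to 19, against a median of 7 and a range of 0 to 27 in the rest. H2A.Z was missing from 21 of the 110 windows and from 64 of 249 in the rest. The fullest windows were at 36.9 to 37.0 Mb and 36.6 to 36.7 Mb in cluster B for the H3K4ox replicates, and in cluster E for the others, at 57.6 to 57.7 Mb for H2A.Z (9 peaks) and 58.9 to 59.0 Mb for RUVBL2 (19 peaks).

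Gaps between peaks differed by antibody. The longest H2A.Z gap in the clusters ran for 480 kb, from 57028901 to 57509296 in cluster E, and contained 83 and 67 H3K4ox peaks and 12 RUVBL2 peaks. Cluster A had a stretch nearly free of all 3: no RUVBL2 peak was centred between 20490574 and 20601284, where no H2A.Z peak and 3 and 5 H3K4ox peaks lay. In cluster D, 114 kb from 52442774 to 52556955 held no RUVBL2 centre but 12 and 8 H3K4ox peaks and 3 H2A.Z peaks. The median distance between neighbouring centres was 3.28 and 3.39 kb for H3K4ox in the clusters and 2.60 and 2.56 kb in the rest. For RUVBL2 it was 7.11 and 6.58 kb, and for H2A.Z 22.9 and 15.1 kb. The mean H2A.Z spacing, 41.6 kb in the clusters and 38.8 kb in the rest, differed less than the median.

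**Figure D2:**
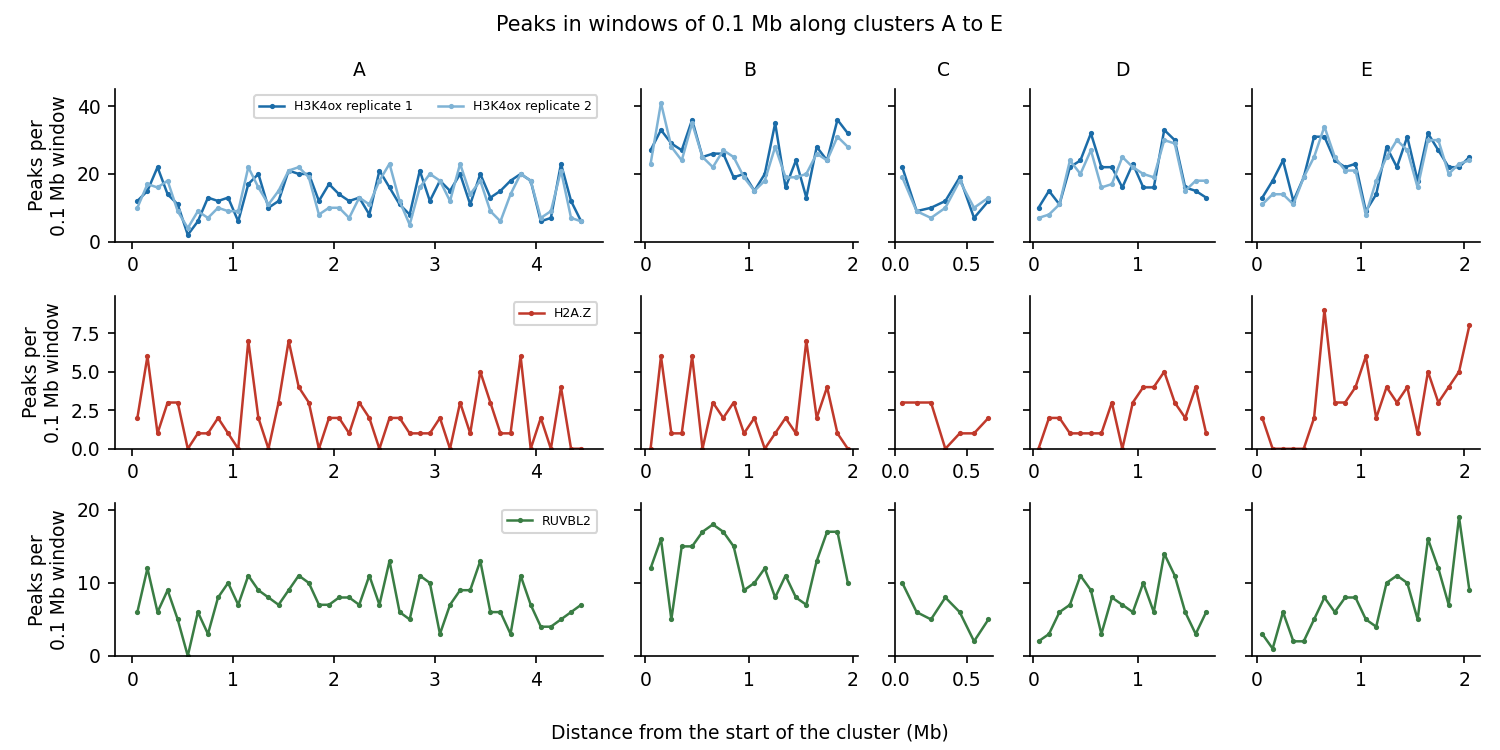
Peaks per window of 0.1 Mb against distance from the start of each cluster in Mb, for both H3K4ox replicates (top), H2A.Z (middle) and RUVBL2 (bottom). The H3K4ox lines run together, H2A.Z is at 0 in 4 consecutive windows near the start of cluster E, and RUVBL2 is highest in cluster B and at the distal end of E.

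Window counts of the H3K4ox replicates had a Spearman correlation of 0.87 over the 110 cluster windows and 0.94 over the 249 of the rest. Correlations between antibodies were lower in the clusters. RUVBL2 with H3K4ox gave 0.52 and 0.61 for the replicates (0.73 and 0.72 in the rest), H2A.Z with H3K4ox 0.27 and 0.39 (0.60 and 0.59), and H2A.Z with RUVBL2 0.32 (0.64). Windows share the library, the depth and the base composition of their region and are no replicates. The range of counts was narrower in the clusters, and its part in the lower correlations was not tested. Within cluster B, H3K4ox and RUVBL2 gave 0.21 and 0.27 over 20 windows, although both had their highest density there. Cluster D gave 0.74 and 0.78 over 17 windows and cluster E 0.65 and 0.75 over 21.

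Peaks at the cluster borders, which the choice of coordinates fixed, were compared over 200 kb on each side. At the start of C there were 31 and 28 H3K4ox peaks inside and 60 and 59 outside, and at its end 19 and 23 inside and 48 and 55 outside. The end of D had 28 and 36 inside and 58 and 74 outside. The start of E had 31 and 25 inside and 25 and 25 outside. Cluster B showed no step of the size seen at C: its start had 60 and 64 inside against 75 and 67 outside, and its end 68 and 59 against 57 and 58. The end of A, next to the peak-free stretch, had 18 and 13 inside and 2 and 3 outside. The nearest H3K4ox peaks of replicate 1 on each side of a border had scores of 54.4 inside and 64.8 outside at the start of B, 148 and 79.5 at its end, 199 and 50.8 at the start of C, 315 and 100.5 at its end and 163 and 70.9 at the end of D. In replicate 2 these were 57.5 and 90.8, 50.1 and 99.05, 61.2 and 55.25, 229 and 57.4, and 57.4 and 69.4 in the same order. The replicates thus differed in direction at the ends of B and D. They also did at the end of A (492 and 493, then 673 and 559) and the start of E (81.15 and 60.3, then 58.05 and 144). At the starts of A and D the inside peak scored higher in both. Each value is that of a single peak.

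H3K4ox peaks of the clusters were also weaker and narrower than those of the rest. Each peak carries a score deposited by the authors, which is compared here within a list only, as its unit is not given. Its median was 83.4 and 81.4 in the clusters against 101 and 98.1 in the rest for replicates 1 and 2, a ratio of 0.827 ± 0.004 (SD, n = 2). Each of the 5 clusters was below the rest, from 72.4 ± 1.89 in C to 89.1 ± 3.92 in B, against 99.6 ± 2.14. When each whole list was divided into 10 groups of equal size by score, the highest group took 5.84% and 4.71% of cluster peaks and 11.1% and 10.1% of peaks in the rest. Cluster D had the fewest, with 2.38% and 1.53%, and A the most, with 7.90% and 6.34%. Widths had medians of 849 and 814 bp in the clusters and 916 and 885 bp in the rest, a ratio of 0.923 ± 0.005. Among peaks of 600 to 1000 bp the score ratio was 0.932, nearer to 1. Against the whole genome outside the clusters both differences ended, with a width ratio of 1.002 ± 0.010 and a score ratio of 0.996 ± 0.005.

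For RUVBL2 and H2A.Z, scores and widths were close to those of the rest. The RUVBL2 median score was 69.2 against 69.9 (ratio 0.990, 0.970 to 1.02) and the median width 793 against 808 bp (0.981, 0.958 to 1.01). The H2A.Z median score was 69.4 against 72.6 (0.956, 0.888 to 1.04) and the median width 797 against 830 bp (0.960, 0.904 to 1.04). These intervals of median ratios hold the counting error of the clusters only and are too narrow. Of the H2A.Z peaks in the clusters, 43 of 252 (17.1%) were in the highest of the 10 score groups, against 15.2% in the rest. RUVBL2 had few in both, 3.53% and 4.24%.

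**Figure D3:**
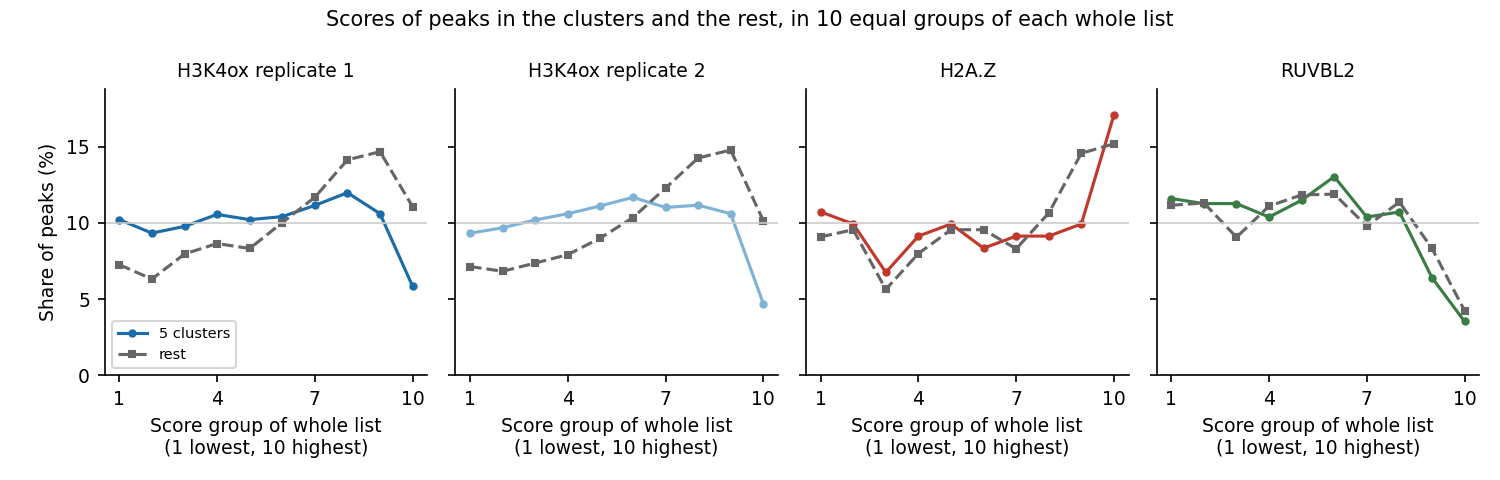
Share of peaks (%) in each of 10 score groups of equal size made from each whole list, for the 5 clusters (coloured circles) and the rest (grey squares); the thin line at 10% is the level of the whole list. H3K4ox peaks of the clusters reach 5.84% and 4.71% in group 10 against 11.1% and 10.1% in the rest, while RUVBL2 has 3.53% and 4.24% there and H2A.Z 17.1% and 15.2%.

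The next question was whether the peaks of the clusters met each other, since RUVBL2 and H2A.Z are linked by exchange complexes and the study joins RUVBL2 with LOXL2. An overlap of 1 bp was enough to count. H3K4ox shared regions are merged peaks of both replicates with at least 1 peak of each, and 1342 of them were centred in the clusters. Agreement of the H3K4ox replicates was lower in the clusters. In replicate 1, 69.4% of cluster peaks met a peak of replicate 2, against 78.5% in the rest, and in replicate 2 72.6% met replicate 1, against 80.3%. Over the whole lists the shares were 67.8% and 70.2%. The mean difference was -8.38 ± 1.00 percentage points (SD, n = 2). It was largest in cluster A (-13.7 and -12.2) and smallest in E (-4.81 and -2.27). With the peaks of both lists cut to 200 bp at their centres it was -1.19 ± 1.25 points. With uncut peaks against the whole genome outside the clusters it turned to 2.03 ± 0.57.

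Of the RUVBL2 peaks in the clusters, 540 of 906 (59.6%, Wilson interval 56.4 to 62.8) met an H3K4ox shared region, against 76.1% (74.1 to 77.9) in the rest and 64.4% of the whole RUVBL2 list. The difference from the rest was -16.5 percentage points (-20.2 to -12.8). Clusters A, B, C and D had 55.2%, 60.3%, 47.6% and 52.5%, and the intervals of their differences from the rest lay below 0. Cluster E, with 76.4%, differed by 0.35 points (-7.11 to 6.62). Counting a peak of either H3K4ox replicate, 81.3% of cluster peaks and 90.9% of peaks in the rest were met. In an alternative, RUVBL2 and H3K4ox peaks were all cut to 200 bp at their centres, and shared regions were remade from the cut H3K4ox peaks. The shares were then 28.3% in the clusters and 28.6% in the rest, a difference of -0.32 points (-3.82 to 3.295). That setting changes both partners, so it does not show what RUVBL2 peak width contributes. With uncut peaks, the difference against the whole genome outside the clusters was -4.87 points (-8.11 to -1.71).

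Since a peak can meet H3K4ox more often where more bases are covered, the share of centres covered was set beside the share of bases covered. Shared regions covered 15.5% of the bases in the clusters and 24.6% in the rest, and 57.4% and 73.3% of RUVBL2 centres. RUVBL2 centres were thus covered 3.69 times (3.49 to 3.90) as often as bases in the clusters and 2.98 times (2.90 to 3.06) in the rest. The ratio was 4.496 in A, 2.61 in B, 4.69 in C, 3.39 in D and 3.78 in E. Cluster B, dense in both, was the lowest of the 5 and its interval of 2.33 to 2.88 lay below that of the rest. The sparse stretch of the rest before cluster B, with 13.6% of bases covered, had a ratio of 4.72 (4.36 to 5.05), above that of the pooled clusters. The coverage was local: at 20 kb before and after RUVBL2 centres it was 17.2% and 17.5% in the clusters and 31.3% and 32.5% in the rest.

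Seen from H3K4ox, the share with a partner was higher than in the rest but near that of the whole lists. Of the H3K4ox peaks in the clusters, 31.6% of replicate 1 and 31.7% of replicate 2 met a RUVBL2 peak, against 26.5% and 26.7% in the rest and 30.7% and 31.3% of the whole lists. The differences from the rest of 5.14 points (2.85 to 7.48) and 4.96 points (2.63 to 7.34) were alike in the replicates. The share was highest in B (36.6% and 35.8%) and A (34.4% in both), where the intervals of the differences lay above 0, and lowest in D (24.1% and 24.5%). The higher share held in each of 5 score classes, made by dividing the whole list into equal parts: in the lowest class it was 17.6% and 19.4% against 11.3% and 12.0%, and in the highest 55.8% and 55.9% against 45.7% and 45.5%. An H2A.Z peak was met by 7.68% ± 0.52 of H3K4ox peaks in the clusters and 8.61% ± 0.36 in the rest (SD, n = 2), with 8.47% and 8.46% of the whole lists. That difference was -0.30 points (-1.63 to 1.13) in replicate 1 and -1.55 points (-2.86 to -0.12) in replicate 2.

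RUVBL2 peaks of equal score were compared as well. In the lowest class of the RUVBL2 list 51.2% of 207 cluster peaks met a shared region, against 67.1% of 429 in the rest. In class 4 the shares were 66.0% of 191 and 84.9% of 404. In the highest class they were 90% of 90 (82.1 to 94.6) and 92.9% of 240 (89.0 to 95.5), whose intervals overlapped. RUVBL2 peaks outside the shared regions were weaker than those inside in both settings, with median scores of 64.1 and 74.98 in the clusters and 61.9 and 73.8 in the rest.

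H2A.Z peaks in the clusters lay by themselves more often than those of the rest. Of the 252, 123 (48.8%, 42.7 to 55.0) met an H3K4ox shared region, against 70.9% in the rest and 45.2% of the whole list. The difference of -22.1 points had an interval of -29.1 to -14.9. It was -10.8 points when peaks of H3K4ox replicate 1 took the place of the shared regions, and -21.8 with replicate 2. Cutting the peaks of all lists to 200 bp in the same way turned the direction, with 25.8% in the clusters and 22.2% in the rest (3.57 points, -2.47 to 10.1). With uncut peaks against the whole genome outside the clusters the difference was 3.68 points (-2.45 to 9.84). A RUVBL2 peak was met by 74 (29.4%, 24.1 to 35.3), against 39.9% in the rest and 33.4% of the whole list, a difference of -10.5 points (-17.1 to -3.56). With H2A.Z and RUVBL2 peaks both cut to 200 bp this too turned, to 1.43 points (-3.81 to 7.27).

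Sorted into 4 classes, 59 H2A.Z peaks of the clusters (23.4%) met both, 64 (25.4%) H3K4ox without RUVBL2, 15 (5.95%) RUVBL2 without H3K4ox and 114 (45.2%, 39.2 to 51.4) neither. In the rest the shares were 34.4%, 36.5%, 5.48% and 23.6%, while 25.7% of the whole list met both and 47.2% neither. The share with neither partner was thus above the rest and near that of the whole list. Peaks with neither made up 76.9% of 13 in cluster C, 51.4% of 37 in D, 49.5% of 91 in A, 36.8% of 68 in E and 34.9% of 43 in B. H2A.Z centres were covered by shared regions 2.86 times (2.47 to 3.26) as often as bases in the clusters and 2.72 times (2.57 to 2.87) in the rest, and by RUVBL2 3.47 times (2.80 to 4.23) and 4.47 times (3.99 to 4.97). The intervals of clusters and rest overlapped for both partners. For RUVBL2, which covered 7.55% of bases in the clusters and 7.50% in the rest, the division by coverage left the difference between them as it was.

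**Figure D4:**
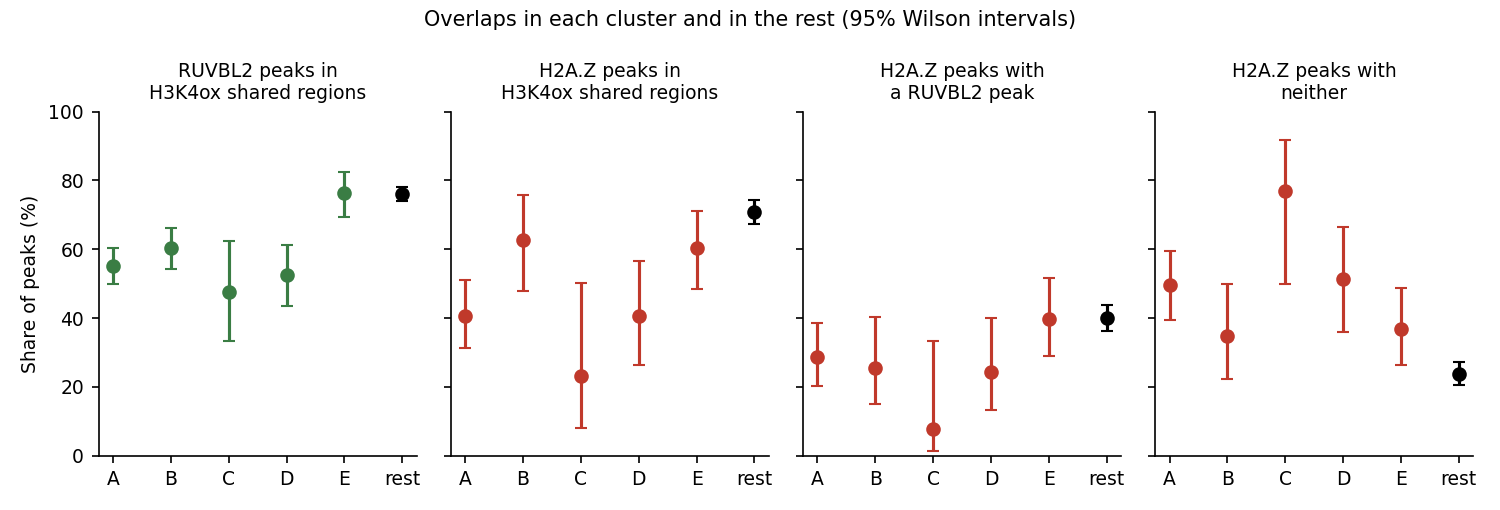
Share of peaks (%) with a partner in each cluster and in the rest, with 95% Wilson intervals: RUVBL2 and H2A.Z peaks in H3K4ox shared regions, H2A.Z peaks with RUVBL2, and H2A.Z peaks with neither. RUVBL2 in clusters A to D lies at 47.6 to 60.3% and the rest at 76.1%, while E is at 76.4%; H2A.Z with neither is at 34.9 to 76.9% in the clusters and 23.6% in the rest.

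By H2A.Z score, the share of H2A.Z peaks with RUVBL2 differed most between clusters and rest in the 2 highest classes. In the lowest class of the H2A.Z list 25 of 52 cluster peaks (48.1%, 35.1 to 61.3) met RUVBL2 and in the highest 14 of 68 (20.6%, 12.7 to 31.6). In the rest the shares were 36.1% (28.1 to 45.1) and 41.6% (34.8 to 48.7). The intervals of clusters and rest did not overlap in the 2 highest classes, at 17.4% against 43.0% and 20.6% against 41.6%, and overlapped in the others. For H3K4ox shared regions the highest class gave 47.1% (35.7 to 58.8) in the clusters and 70.5% (63.7 to 76.6) in the rest. There the gap did not grow steadily with score. It was widest in class 3, at 43.5% against 77.0%, and smallest in the lowest class, at 61.5% against 73.1%. H2A.Z peaks outside the shared regions scored higher than those inside, with medians of 74.8 and 64.3 in the clusters and 79.5 and 70.6 in the rest.

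**Figure D5:**
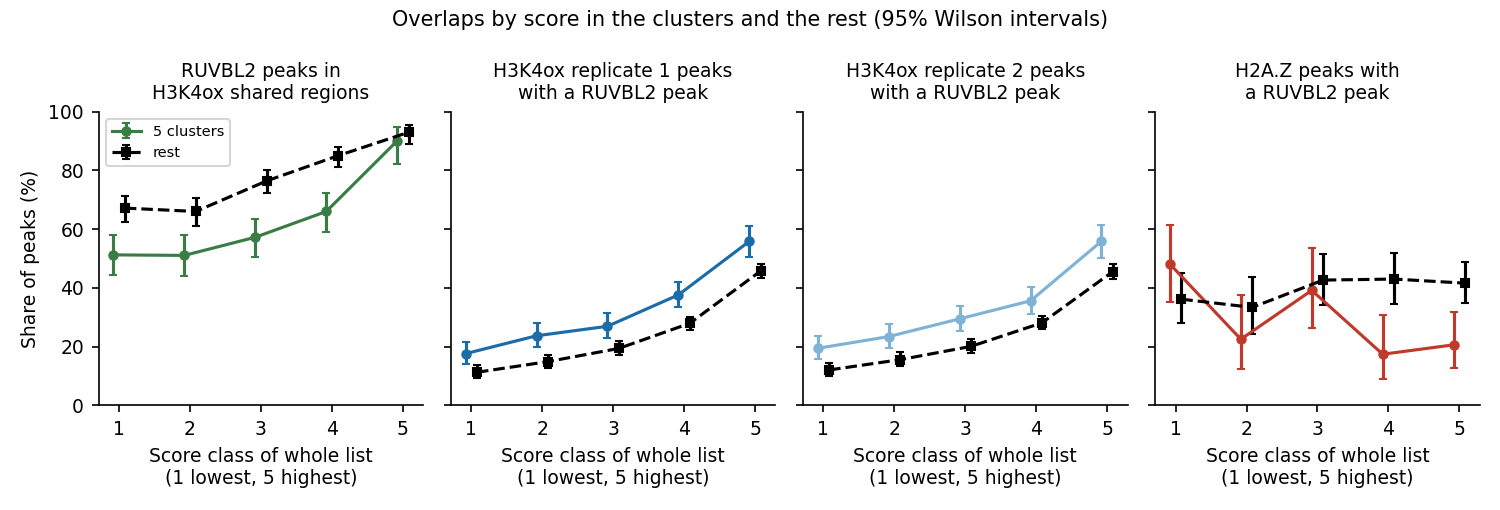
Share of peaks (%) that overlap a partner in each of 5 score classes of the whole list, for the 5 clusters (coloured circles) and the rest (black squares), with 95% Wilson intervals. H3K4ox peaks of the clusters meet RUVBL2 more often in each class, RUVBL2 peaks meet H3K4ox less often up to class 4 (66.0% and 84.9%), with overlapping intervals in class 5,, and strong H2A.Z peaks of the clusters meet RUVBL2 in 20.6% against 41.6%.

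The best-scoring sites of the clusters differed between antibodies in what else they held. The best H3K4ox shared region was at 23647676 to 23653045 in cluster A, with scores of 2290 and 2284 in the replicates (ranks 55 and 50 of the whole lists), and held no H2A.Z and no RUVBL2 peak. The same was true of the next, at 24060799 to 24065617 in A (2268 and 1753), and of the best in C, at 44960375 to 44963610 (788.7 and 600.1). The third, at 59050181 to 59055241 in E (1565 and 1418), held an H2A.Z peak of score 413.5. In B and D the best H3K4ox regions, at 38328943 to 38336369 (1056 and 909.9) and 52555951 to 52559785 (692.4 and 696.4), held 3 and 2 RUVBL2 peaks, and no H2A.Z. These RUVBL2 peaks included the best RUVBL2 peak of each of these clusters.

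All of the best RUVBL2 peaks of the 5 clusters lay in H3K4ox shared regions. The strongest were at 38330189 to 38333817 (score 486.3, width 3629 bp) and 37609671 to 37613654 (449.8, 3984 bp) in B and at 58932538 to 58937345 (400.04, 4808 bp) in E. Those of A, C and D were at 20810530 to 20813303 (379.4), 44725012 to 44728490 (363.2) and 52557915 to 52559688 (230.4). Of these 6 sites, the one in E held an H2A.Z peak, of score 53.6. In the highest of the 5 RUVBL2 score classes, 90% of cluster peaks and 92.9% of those in the rest met a shared region.

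The best H2A.Z peaks were mixed. At 37807115 to 37809467 in B (score 521.9, rank 177 of the list, width 2353 bp) and 59015409 to 59017157 in E (457.8) peaks of all 3 antibodies met. At 20605898 to 20607862 in A (502.4) and 44715544 to 44716715 in C (362.1) no peak of another list was found. That in D, at 53446376 to 53447687 (311.0), met a weak H3K4ox peak of replicate 2 (65.0) alone.

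Sites where H3K4ox shared regions, H2A.Z and RUVBL2 joined numbered 59 in the clusters, or 5.36 per Mb, and 212 in the rest, or 8.49 per Mb. Cluster E held 24 of them (11.4 per Mb), A 18, B 10, D 6 and C 1. By mean rank the best were 59012954 to 59018559 in E (H3K4ox 631.8 and 574.4, H2A.Z 457.8, RUVBL2 177.1), 24293697 to 24299373 in A (565.2, 546.9, 97.5 and 251.0) and 23457110 to 23458513 in A (173.2, 126.5, 427.4 and 117.4). The best in D, at 53239249 to 53240571, had H3K4ox scores of 98.0 and 159.1 with an H2A.Z score of 281.5. The one of C, at 44327166 to 44328004, was weak in every list, with scores of 53.8, 53.8, 63.9 and 59.2.

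Wide H3K4ox peaks, of at least 4 kb, were present in the clusters although the median H3K4ox score there was low. There were 14 in replicate 1 and 11 in replicate 2, or 1.27 and 1.00 per Mb, against 47 and 36 in the rest, or 1.88 and 1.44 per Mb. The ratios of 0.676 (0.344 to 1.25) and 0.694 (0.319 to 1.39) included 1. Such peaks made up 1.41% and 1.08% of the whole lists. Each of the 14 and of the 11 met a peak of the other replicate. Clusters A, B, C and E had 7, 2, 1 and 4 in replicate 1, and cluster D had none in either replicate. RUVBL2 met 10 of the 14 and 8 of the 11, and H2A.Z 5 and 2. In the rest RUVBL2 met 40 of the 47 and 32 of the 36, and H2A.Z 25 and 18. RUVBL2 itself had 2 peaks of this width in the clusters and 23 in the rest, a ratio of 0.197 with an interval of 0.0226 to 0.799, where 1.04% of the whole list were as wide. H2A.Z had 0 such peaks in the clusters and 7 in the rest, with 0.192% of the whole list this wide, and the upper bound of its ratio was 1.58.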

How the data were processed

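Peak lists of 4 ChIP-seq samples of MDA-MB-231 cells were used, grouped by antibody from the sample titles; 11 of the 15 samples were not analysed here. The peak names carry the word MACS; no version or setting is stated in any label or header. Per the submitters' processing notes the build was hg19 and the tools included TopHat and Bowtie. The score of each peak is the value the authors deposited, its unit is not given, and its lowest value was 50 in each list. The header lines of the H3K4ox lists name an input and the others do not, so peaks may have been called differently.

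All computing used scipy 1.17.1, pandas 2.3.3 and numpy 2.4.6 under Python 3.11.15, with matplotlib 3.10.9 for plots. Stretches of at least 1 Mb without a peak of any list were left out of lengths. Density ratios have exact conditional binomial intervals, shares Wilson intervals, differences Newcombe intervals, medians binomial rank intervals and ratios per H3K4ox peak log-normal ones. For a ratio of medians, the rank interval of the clusters was divided by the median of the rest, taken as fixed. On simulated data, 188 of 200 density intervals and 194 of 200 Wilson intervals held the true value. The simulated peaks were drawn independently of each other and at an even density within clusters and rest. Real peaks are not placed so, and these counts check the computation only. Sites were named by rule: the best-scoring of each kind per cluster and the best 3 over all clusters.

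Clusters, lists and alternatives were chosen with earlier results of these data known. The comparisons with the rest beyond cluster B, with the whole genome, by score class, of peaks of at least 4 kb and of the ratio per H3K4ox peak were added after seeing the data. Peaks at gene starts needed an hg19 annotation and were not analysed here.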

Additional observations from a re-analysis of the deposited data

How the results depend on the processing

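For 15 results recomputed under 100 alternatives in all, 57 values stayed within the spread or interval of the reported one, 37 moved beyond it and 6 turned the direction of a difference that the interval or both replicates had shown. Counting also results whose interval included no difference, 12 turned direction. Where a result was the mean over the 2 H3K4ox lists, its spread was their SD. A value from 1 of the 2 lists always lies within that SD. Such values from leaving out a replicate are among the 57 by construction and show no stability. The references beyond cluster B and over the whole genome, and the ratios per H3K4ox peak with their alternatives, were chosen after seeing the data. Ratios are clusters to rest and differences are percentage points. Leaving out H3K4ox replicate 1 and then replicate 2 gave density ratios of 0.768 and 0.794, width ratios of 0.920 and 0.927, score ratios of 0.830 and 0.824, differences of -14.4 and -11.1 for RUVBL2 in H3K4ox and -21.8 and -10.8 for H2A.Z in H3K4ox, and ratios per H3K4ox peak of 1.40 and 1.36 for RUVBL2 and 1.17 and 1.13 for H2A.Z. Without cluster A, H3K4ox gave 0.914 for density, 0.844 for score and -6.35 for replicate agreement, and the ratios per H3K4ox peak were 1.25 for RUVBL2 and 1.06 for H2A.Z. In the upper 50% by score, H3K4ox density was 0.628, and widths were 0.947 for H3K4ox and 0.957 for RUVBL2. Differences were -21.3 and -30.1 for RUVBL2 and H2A.Z in H3K4ox and -10.3 for replicate agreement. Ratios per H3K4ox peak were 1.66 for RUVBL2 and 1.31 for H2A.Z. For these differences the partner lists were limited by score in the same way. The differences therefore do not show how often strong peaks met the full H3K4ox lists. Against all shared regions, RUVBL2 peaks of score class 4 gave 66.0% in the clusters and 84.9% in the rest. Those of class 5 gave 90% and 92.9%. With the peaks of both partners cut to 200 bp at their centres, the 4 overlap differences were -0.32 for RUVBL2 in H3K4ox, 3.57 for H2A.Z in H3K4ox, 1.43 for H2A.Z with RUVBL2 and -1.19 for replicate agreement. The cause was not tested. Counting the peak-free stretch in the rest gave densities of 0.879 for H3K4ox and 1.21 for RUVBL2, since the length of the rest grows. Trimming the borders by 0.1 Mb moved the H3K4ox score to 0.823 and peaks of 600 to 1000 bp gave 0.932. Against the rest beyond the start of cluster B, densities were 0.647, 0.670 and 0.883 for H3K4ox, H2A.Z and RUVBL2, H3K4ox width and score 0.902 and 0.806, replicate agreement -9.82 and H2A.Z per H3K4ox peak 1.04. Against the whole genome outside the clusters, whose mean density is lower, densities were 2.098, 1.71 and 2.17, widths 1.002 for H3K4ox and 0.910 for RUVBL2, scores 0.996, 1.04 and 0.942, differences -4.87, 3.68 and 2.03 for RUVBL2 in H3K4ox, H2A.Z in H3K4ox and replicate agreement, and ratios per H3K4ox peak 1.03 for RUVBL2 and 0.816 for H2A.Z. No paired analysis was possible because no result came from a test over samples; each ratio and difference compares clusters with rest inside the same list. Counts of 13 H2A.Z and 42 RUVBL2 peaks limit what cluster C can show.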

Other observations

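A short piece of the rest, 0.109 Mb long, lay between the end of cluster A and the peak-free stretch. It held 2 and 3 H3K4ox peaks, with median widths of 4878 and 4452 bp and median scores of 791.3 and 558.7. The 3 H2A.Z and 5 RUVBL2 peaks there met no H3K4ox peak of either replicate and did not meet each other. Over the whole rest, 84.8% of H2A.Z and 90.9% of RUVBL2 peaks met a peak of either H3K4ox replicate, and 39.9% of H2A.Z peaks met RUVBL2. With 3 and 5 peaks, the upper bounds of the shares with H3K4ox in the short piece were 56.1% and 43.4%.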
